A study of Mus musculus with 4 samples.

Results

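The genes described here encode the proteins that mark replication origins, open them and copy DNA at the fork. They were 47 genes chosen by symbol, with earlier results of these data known. They run from the 6 subunits of the origin recognition complex to the enzymes that make deoxynucleotides. All 47 were measured, by 50 of the 35556 probe sets on the array, and 0 of these probe sets listed a further gene. They are 47 of 19938 genes tested. RNA came from Daltons lymphoma ascites (DLA) cells, a mouse tumour passaged as free cells in the abdominal cavity of male Swiss albino mice aged 4 to 5 months. The control group was 2 arrays of cells from unirradiated tumour-bearing mice, and the irradiated group was 2 arrays of cells from mice given 2 Gy of electrons over the whole body 8 days after transplantation. Cells were collected 48 h after exposure. Both groups carried the tumour, the dose was given to host and tumour together, and the share of host cells in the collected fluid is not given. The labels call the arrays biological replicates 1 and 2 and do not say whether an array held 1 mouse or several. The p-values set group differences against the spread between arrays of the same group, estimated with the help of all genes. Whether that is a spread between single mice is not known.

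DNA replication starts at origins that are first licensed and later fired. The origin recognition complex (ORC), with CDC6 and CDT1, loads the ring of MCM2 to MCM7 onto DNA in G1, and geminin blocks CDT1 afterwards so that no origin is licensed again in the same cycle. The kinase CDC7 with its activator DBF4 then lets CDC45 and the GINS complex join the MCM ring to form the active helicase. Polymerase alpha with primase lays down primers, RFC loads the clamp PCNA, polymerases epsilon and delta extend the strands, RPA covers single-stranded DNA, and FEN1, DNA2 and LIG1 finish the lagging strand. Many of these genes are known targets of E2F transcription factors and are transcribed most at the G1 to S transition.

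Values are log2 intensities made with RMA, a method that corrects background, gives the arrays a common distribution and summarises the probes of each set. Array medians lay between 6.43 and 6.46. Across all genes the 2 irradiated arrays lay further apart than the 2 control arrays, with an SD of their difference of 0.362 against 0.167. Of the members, 46 of 47 had a 4-array mean no lower than the all-gene median, and Gmnn was the 1 below it. The labelled lymphoma identity was not borne out by lymphocyte markers. None of the 10 measured T cell markers (Cd3d, Cd3e, Cd3g, Cd247 and Cd4 among them) and none of the 7 measured B cell markers reached the all-gene median. Of 7 pan-leukocyte markers 2 did (Lcp1 and Srgn), and Ptprc (CD45) did not, while 10 of 12 epithelial and trophoblast markers did, among them Krt8 at 14.07 and 14.11 in control and 13.93 and 13.30 in irradiated arrays. The text therefore speaks of irradiated and control arrays or cells without a cell type.

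Promoter sequence was looked at for a feature the members share beside their function. RefSeq windows of 300 bases (assembly GRCm38.p6), from 250 before to 50 after a transcription start, were at hand for 39 of the 47 members, 48 windows in all. They were searched on both strands for 4 words of the E2F site (TTTCGCGC, TTTGGCGC, TTTCCCGC and TTTGCCGC). A word was present in 14 of the 48 member windows (29.2%), each of a different gene, against 744 of all 32851 windows (2.26%). The share of member windows was 36.4% for licensing, 41.7% for helicase and firing, 23.8% for polymerase and fork genes and 0 of 4 for nucleotide supply. The window is shown for the member with the smallest p in each step whose window held a word, on the gene's own strand, 5′ to 3′, with the matches in capitals. Orc1 lies at chr4:108579204-108579503 on the plus strand, Mcm5 at chr8:75109259-75109558 on the plus strand and Pola1 at chrX:93632106-93632405 on the minus strand.
Orc1: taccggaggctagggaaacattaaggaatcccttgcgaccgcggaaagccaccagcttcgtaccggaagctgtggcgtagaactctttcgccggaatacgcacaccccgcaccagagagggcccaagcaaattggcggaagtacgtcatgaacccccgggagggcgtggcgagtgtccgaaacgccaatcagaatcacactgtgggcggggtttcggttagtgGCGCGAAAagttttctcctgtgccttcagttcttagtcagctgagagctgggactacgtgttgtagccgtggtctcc
Mcm5: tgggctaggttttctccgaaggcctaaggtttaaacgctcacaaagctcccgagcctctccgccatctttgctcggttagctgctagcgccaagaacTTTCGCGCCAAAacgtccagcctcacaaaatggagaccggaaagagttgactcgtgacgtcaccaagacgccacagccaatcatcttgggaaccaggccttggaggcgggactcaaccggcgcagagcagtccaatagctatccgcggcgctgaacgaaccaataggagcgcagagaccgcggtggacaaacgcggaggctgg
Pola1: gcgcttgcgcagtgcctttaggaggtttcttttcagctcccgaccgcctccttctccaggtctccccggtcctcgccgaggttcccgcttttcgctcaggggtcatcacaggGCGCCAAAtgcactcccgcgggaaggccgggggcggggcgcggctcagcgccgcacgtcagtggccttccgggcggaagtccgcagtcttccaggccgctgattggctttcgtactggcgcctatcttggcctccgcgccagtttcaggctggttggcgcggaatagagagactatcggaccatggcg
The Orc1 match begins at position −27 from the start of transcription and the Pola1 match at −138. Mcm5 has 2 overlapping matches on opposite strands, beginning at −153 and −149. The CCAAT box, searched as CCAAT on both strands, was in 52.1% of member windows and 37.4% of all windows. The cell cycle homology region of late cell cycle promoters, searched as TTTGAA and TTCGAA, was in 20.8% of member windows and 19.2% of all, with 7 of its 10 member windows in the helicase and firing step. In the 28 windows of 26 mitosis genes, by comparison, it was in 78.6% and an E2F word in 7.14%. A match is a string of letters and not a measured binding site.

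**Figure D1:**
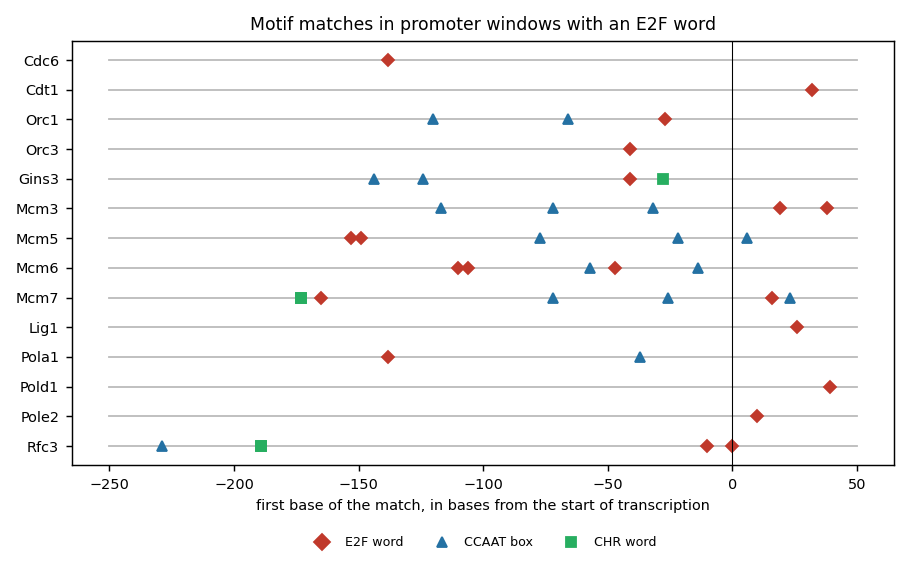
Positions of motif matches (horizontal axis, bases from the start of transcription) in the promoter windows of the 14 members that hold an E2F word, 1 line per gene. Red diamonds are E2F words, blue triangles CCAAT boxes and green squares CHR words; matches sit on both sides of the start, and Mcm6 holds 3 E2F words.

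The study's single contrast sets cells of irradiated mice against cells of control mice 48 h after exposure. In these arrays the replication genes were mostly higher in irradiated cells, by modest amounts. The mean difference was above 0 for 38 of 47 members (80.9%), below 0 for 8 and 0 for Rfc5, where it was above 0 for 43.4% of all genes. The median difference was 0.31 on the log2 scale (1.24-fold) against −0.03 over all genes. At an unadjusted limma p under 0.05 there were 19 members (40.4%), beside 10.3% of all genes. Of these, 18 were higher (38.3%) and 1 was lower, beside 5.21% and 5.10% of all genes in those directions. In a fit of only the genes at or above the all-gene median, 19 of 46 members passed, beside 16% of the genes fitted. The 2 irradiated arrays each exceeded the 2 controls for 26 members (55.3%) and were each below them for 4, against 17.8% and 23.9% of all genes. After Benjamini-Hochberg adjustment over all genes 0 members passed 0.05 in limma (1 gene of 19938 did, 0.00502%), and the smallest adjusted p among the members was 0.241. No single member is therefore called as changed, and the values describe these 4 arrays. The members and the lists set beside them were chosen with earlier results of these data known. Their shares are therefore not independent of these arrays. In bulk RNA, more cells in S phase and more of a transcript per cell cannot be told apart.

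The count depended on single arrays. It was 7 of 47 members without control replicate 1 and 6 without control replicate 2, in fits where 1.91% and 2.06% of all genes passed the unadjusted threshold. It was 18 without irradiated replicate 1, with 14 higher and 4 lower, and 28 without irradiated replicate 2, with 26 higher and 2 lower, in fits where 29.7% and 15.3% of all genes passed. The median difference was 0.195 without irradiated replicate 1. Orc1, Dbf4, Pola1 and Rrm2 had an unadjusted p under 0.05 in each of the 13 alternative fits run for them.

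**Figure D2:**
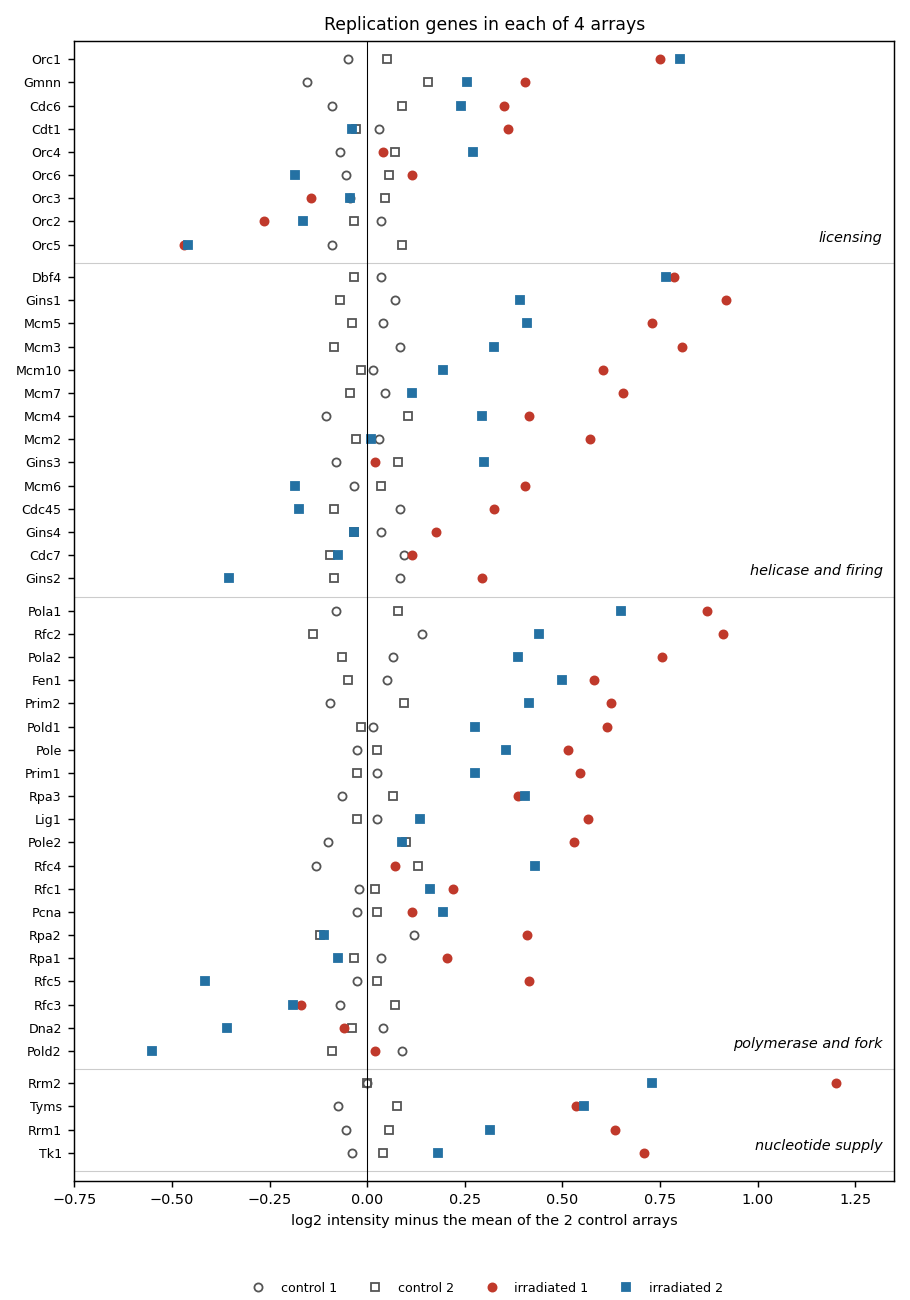
Log2 intensity minus the control mean (horizontal axis) of the 47 members in each array, grouped by step and ordered by mean difference. Open symbols are the 2 control arrays and filled symbols the 2 irradiated arrays; irradiated symbols lie right of both control symbols for 26 genes and left of them for Orc2, Orc5, Rfc3 and Dna2.

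Licensing genes differed in both directions and had the smallest median of the 4 steps, 0.155. Of the 9 genes, 5 were higher and 4 were lower. Orc1, the largest subunit of ORC, measured 7.90 and 8.00 in control and 8.70 and 8.75 in irradiated arrays. The groups were well apart and the irradiated arrays nearly equal, with a difference of 0.775 (SE 0.115, 1.71-fold, limma unadjusted p = 0.000748, adjusted p = 0.241). Orc5, an ATP-binding subunit of the same complex, measured 9.38 and 9.56 in control and 9.0 and 9.01 in irradiated arrays. It was the 1 member lower at the unadjusted threshold, by −0.465 (SE 0.122, limma unadjusted p = 0.0107, adjusted p = 0.388).

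The rest of ORC stayed close to control. Orc2 measured 10.54 and 10.47 in control and 10.24 and 10.34 in irradiated arrays, so both irradiated arrays were below both controls, with a difference of −0.215 (SE 0.116). Orc3, Orc4 and Orc6 overlapped between the groups, with differences of −0.095, 0.155 and −0.035. The 6 transcripts of ORC thus covered a range from −0.465 to 0.775, with a median of −0.065. Among the loading factors, Cdc6, the ATPase that joins ORC before the MCM ring, measured 7.35 and 7.53 in control and 7.79 and 7.68 in irradiated arrays. Gmnn, which encodes geminin, measured 6.29 and 6.60 in control and 6.85 and 6.70 in irradiated arrays. For both genes the groups did not overlap, with differences of 0.295 (SE 0.127) and 0.33 (SE 0.151) and limma unadjusted p-values of 0.0630 and 0.0760. Cdt1, the loader that geminin inhibits, measured 9.96 and 9.90 in control and 10.29 and 9.89 in irradiated arrays, so it was high in irradiated replicate 1 alone. Without irradiated replicate 1 the licensing median was −0.04, without control replicate 1 it was 0.085, and without Gmnn, which a filter at the all-gene median removes, it was 0.06 with 4 genes higher and 4 lower.

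Helicase and firing genes were higher in 13 of 14 cases, beside 43.4% of all genes, with a median of 0.3225. At the unadjusted threshold 5 were higher, beside 5.21% of all genes. Without irradiated replicate 1 the median was 0.155, with 9 genes higher and 5 lower, and without irradiated replicate 2 it was 0.4925. Dbf4, the regulatory subunit that activates CDC7, measured 9.96 and 9.89 in control and 10.71 and 10.69 in irradiated arrays. Its difference of 0.775 (SE 0.112, 1.71-fold, limma unadjusted p = 0.000658, adjusted p = 0.241) had the smallest p of the members. The kinase Cdc7 itself measured 6.92 and 6.73 in control and 6.94 and 6.75 in irradiated arrays. The catalytic subunit thus overlapped with control, with a difference of 0.02 (SE 0.136), beside an activator that was apart from control in both arrays.

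All 6 subunits of the MCM ring had positive differences, from 0.11 for Mcm6 to 0.57 for Mcm5. Mcm5 measured 9.50 and 9.42 in control and 10.19 and 9.87 in irradiated arrays (SE 0.148, limma unadjusted p = 0.0101, adjusted p = 0.386). Mcm3 measured 9.79 and 9.62 in control and 10.51 and 10.03 in irradiated arrays, a difference of 0.565 (SE 0.189, limma unadjusted p = 0.0271, adjusted p = 0.443). Mcm4 measured 9.17 and 9.38 in control and 9.69 and 9.57 in irradiated arrays, a difference of 0.355 (SE 0.132, limma unadjusted p = 0.0392, adjusted p = 0.464). These 3 and Mcm7 had both irradiated arrays above both controls, beside 17.8% of all genes. Mcm7 measured 10.87 and 10.78 in control and 11.48 and 10.94 in irradiated arrays. Mcm2 measured 10.06 and 10.00 in control and 10.60 and 10.04 in irradiated arrays. Mcm6 measured 9.96 and 10.03 in control and 10.40 and 9.81 in irradiated arrays. Irradiated replicate 1 was the higher array for all 6, and in Mcm2 and Mcm6 irradiated replicate 2 lay within or below the controls.

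The proteins that complete the helicase varied more. Gins1, a subunit of the 4-protein GINS complex, measured 8.08 and 7.94 in control and 8.93 and 8.40 in irradiated arrays, a difference of 0.655 (SE 0.199, limma unadjusted p = 0.0188, adjusted p = 0.439). Gins2, of the same complex, measured 8.18 and 8.01 in control and 8.39 and 7.74 in irradiated arrays, above both controls in one irradiated array and below both in the other. Gins3 and Gins4 had differences of 0.16 and 0.07 and overlapped with control. Mcm10, which helps activate the assembled helicase, measured 9.16 and 9.13 in control and 9.75 and 9.34 in irradiated arrays, a difference of 0.40 (SE 0.166, limma unadjusted p = 0.0562). Cdc45 measured 9.05 and 8.88 in control and 9.29 and 8.79 in irradiated arrays and overlapped.

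Polymerase and fork genes were higher in 16 of 20 cases, beside 43.4% of all genes, with a median of 0.33. At the unadjusted threshold 9 were higher, beside 5.21% of all genes. All 4 subunits of polymerase alpha and primase, the enzyme that makes primers, were among the 9. Pola1, the catalytic subunit, measured 7.78 and 7.94 in control and 8.73 and 8.51 in irradiated arrays, a difference of 0.76 (SE 0.137, 1.69-fold, limma unadjusted p = 0.00195, adjusted p = 0.294). Pola2, its accessory subunit, measured 9.48 and 9.35 in control and 10.17 and 9.80 in irradiated arrays, a difference of 0.57. Prim2, the large primase subunit, measured 8.88 and 9.07 in control and 9.60 and 9.39 in irradiated arrays, a difference of 0.52. Prim1, the small primase subunit that joins the ribonucleotides, measured 8.70 and 8.65 in control and 9.22 and 8.95 in irradiated arrays, a difference of 0.41. Both irradiated arrays exceeded both controls for all 4 genes, beside 17.8% of all genes. The last 3 had unadjusted limma p-values of 0.0144, 0.0114 and 0.0274.

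The replicative polymerases were less even. Pole, the catalytic subunit of the leading-strand polymerase epsilon, measured 9.28 and 9.33 in control and 9.82 and 9.66 in irradiated arrays, a difference of 0.435 (SE 0.121, limma unadjusted p = 0.0133). Its partner Pole2 measured 7.89 and 8.09 in control and 8.52 and 8.08 in irradiated arrays and overlapped with control. Pold1, the catalytic subunit of polymerase delta, measured 8.00 and 7.97 in control and 8.60 and 8.26 in irradiated arrays, a difference of 0.445 (SE 0.151, limma unadjusted p = 0.0283). Its partner Pold2 had the lowest difference of the step, −0.265 (SE 0.211), with 11.19 and 11.01 in control and 11.12 and 10.55 in irradiated arrays. Its irradiated replicate 1 lay within the controls and replicate 2 below them.

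The clamp loader was split as well. Rfc2 measured 8.12 and 7.84 in control and 8.89 and 8.42 in irradiated arrays, a difference of 0.675 (SE 0.198, limma unadjusted p = 0.0166), and it was the 1 of 5 RFC genes at the unadjusted threshold. Rfc1, the large subunit, measured 8.89 and 8.93 in control and 9.13 and 9.07 in irradiated arrays, a small difference of 0.19 without overlap. Rfc3 measured 9.48 and 9.62 in control and 9.38 and 9.36 in irradiated arrays, a difference of −0.18 in the opposite direction, also without overlap. Rfc4 had a difference of 0.25 and overlapped with control. Rfc5 measured 9.85 and 9.90 in control and 10.29 and 9.46 in irradiated arrays, so its mean difference of 0.00 (SE 0.274) came from arrays on opposite sides of the controls. Pcna, the clamp that RFC loads, measured 12.36 and 12.41 in control and 12.50 and 12.58 in irradiated arrays, a difference of 0.155 (SE 0.113). A further Pcna probe set gave 0.165 (SE 0.113).

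Of the single-strand binding complex RPA, Rpa3 measured 10.23 and 10.36 in control and 10.68 and 10.70 in irradiated arrays, a difference of 0.395 (SE 0.117, limma unadjusted p = 0.0169), and its other probe set gave 0.435 (SE 0.121). Rpa1 and Rpa2 had differences of 0.065 and 0.15 and overlapped with control. Fen1, the nuclease that trims lagging-strand flaps, measured 7.62 and 7.52 in control and 8.15 and 8.07 in irradiated arrays. Its difference of 0.54 (SE 0.116, 1.45-fold, limma unadjusted p = 0.00445, adjusted p = 0.342) was nearly the same in both irradiated arrays. Lig1, which seals the remaining nick, measured 9.28 and 9.23 in control and 9.82 and 9.39 in irradiated arrays, a difference of 0.35 (SE 0.171, limma unadjusted p = 0.0906). Dna2, a helicase and nuclease that cuts long flaps, measured 8.46 and 8.38 in control and 8.36 and 8.06 in irradiated arrays, a difference of −0.21 (SE 0.144), with both irradiated arrays below both controls.

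Nucleotide supply was the step in which no gene overlapped. All 4 genes had both irradiated arrays above both controls, beside 17.8% of all genes, and the median difference was 0.51 (1.42-fold). At the unadjusted threshold 3 were higher, beside 5.21% of all genes. Rrm2, the small subunit of ribonucleotide reductase and the one whose level normally limits the enzyme in S phase, measured 10.60 and 10.60 in control and 11.80 and 11.33 in irradiated arrays. Its difference of 0.965 (SE 0.179, 1.95-fold, limma unadjusted p = 0.00226, adjusted p = 0.294) was the highest of the 47. Rrm1, the large subunit, measured 11.29 and 11.40 in control and 11.98 and 11.66 in irradiated arrays, a difference of 0.475 (SE 0.150, limma unadjusted p = 0.0219). Tyms, thymidylate synthase, measured 8.57 and 8.72 in control and 9.18 and 9.20 in irradiated arrays, a difference of 0.545 (SE 0.119, limma unadjusted p = 0.00470), and the irradiated arrays were nearly equal. Tk1, the salvage thymidine kinase of S phase, measured 9.27 and 9.35 in control and 10.02 and 9.49 in irradiated arrays, a difference of 0.445 (SE 0.196, limma unadjusted p = 0.0673). A further Tk1 probe set measured 8.39 and 8.63 in control and 9.52 and 8.97 in irradiated arrays, a difference of 0.735 (SE 0.213, limma unadjusted p = 0.0159). The probe sets of Tk1 shared their direction and the higher irradiated array but not the side of the threshold. The differences between the medians of the 4 steps were not tested.

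The irradiated arrays did not carry the pattern equally. Irradiated replicate 1 exceeded replicate 2 for 37 of 47 members (78.7%), against 53.3% of all genes. Relative to the control mean, the member median was 0.415 in irradiated replicate 1, with 42 of 47 genes above 0, and 0.195 in replicate 2, with 31 above 0. The all-gene medians were −0.015 and −0.04. The irradiated arrays were further apart than the control arrays for 36 of 47 members. The wider irradiated gap was also present across all genes. With the sign dropped, the median gap was 0.3 between irradiated and 0.11 between control arrays for members, and 0.2 and 0.1 for all genes. The SD of the signed gap was 0.266 and 0.142 for members, and 0.362 and 0.167 for all genes. Shares of all genes at the limits below were not counted. By limits chosen after the values were seen, 17 members had irradiated arrays at least 0.4 apart, among them Mcm2, Mcm3, Mcm6, Mcm7, Cdc45, Gins1, Gins2, Rrm2 and Tk1, and 11 had them within 0.1, namely Orc1, Orc2, Orc3, Orc5, Dbf4, Tyms, Fen1, Rpa3, Rfc1, Rfc3 and Pcna. None of the 47 had control arrays 0.4 apart. With its sign kept, the median of replicate 1 minus replicate 2 was the largest of the 4 steps for helicase and firing, 0.445. For licensing it was −0.01, from gaps in both directions that ran from −0.23 (Orc4) to 0.40 (Cdt1).

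**Figure D3:**
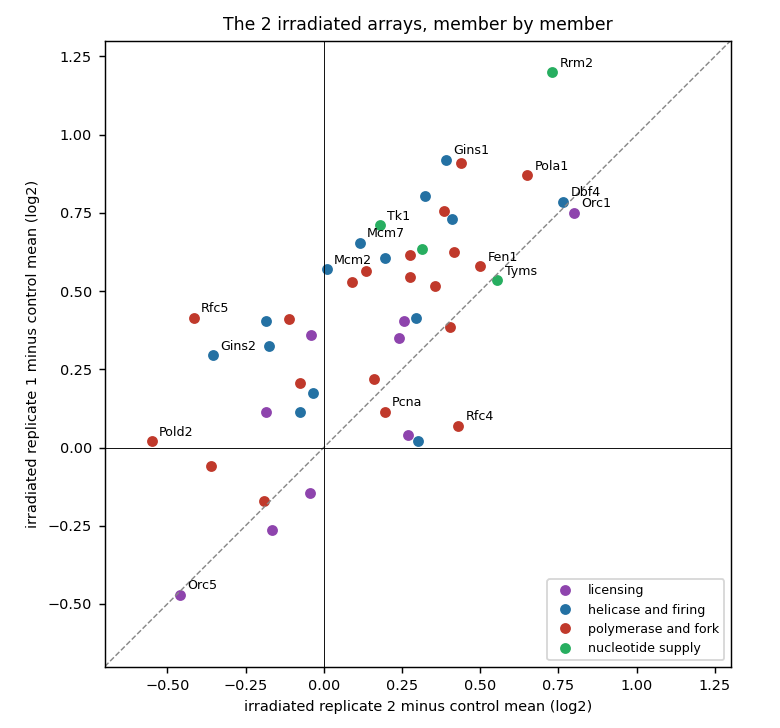
Each point is a member, with its log2 level minus the control mean in irradiated replicate 2 (horizontal axis) and replicate 1 (vertical axis), coloured by step; the dashed line marks equal values and both axes share the same control mean. Most points lie above the line (37 of 47), Orc1, Dbf4 and Tyms lie near it, and Rfc5 and Gins2 are positive in one array and negative in the other.

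Members with and without an E2F word in the window were also compared by their differences. The 14 members with a word had a median difference of 0.33, with 5 of 14 higher at the unadjusted threshold. The 25 members with a window but no word had a median of 0.19, with 8 of 25 higher and 1 lower. Higher at that threshold were 38.3% of all members and 5.21% of all genes, and 5.10% of all genes were lower. Orc1, Mcm3, Mcm5, Pola1 and Pold1 were the 5 with a word, while Dbf4, Fen1, Rrm2 and Tyms were higher without one in the window. Mcm6 and Rfc3, with 3 and 2 words, had differences of 0.11 and −0.18. This contrast was not tested.

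Further genes of the pathway, none of them members, were counted from a list of 65, of which 63 were measured. The mean was higher for 44 and lower for 19, with a median of 0.135, and at the unadjusted limma threshold 13 were higher and 2 lower, beside 5.21% and 5.10% of all genes. Leaving out irradiated replicate 1 lowered that median to 0.045, and leaving out replicate 2 raised it to 0.235. Pclaf, the PCNA-associated factor, measured 9.55 and 9.24 in control and 10.62 and 10.09 in irradiated arrays, which was the highest difference (0.96, SE 0.216). Next by p were Dnmt1 (0.64), the methyltransferase that copies DNA methylation, Polk (0.43), a polymerase that bypasses lesions, Top1 (0.445), which relaxes DNA ahead of the fork, Nasp (0.47), a histone chaperone, Atad5 (0.37), which unloads PCNA, Ticrr (0.435), which links origin firing to cell cycle kinases, and Dscc1 (0.36), of an alternative clamp loader. Chromatin copying genes had a median of 0.3675 with 5 of 10 higher at the threshold, and fork protection and clamp loading genes one of 0.25 with 5 of 15. The median was 0.105 for origin firing and MCM regulators, with 2 of 15 higher and 0 lower at the threshold. Other polymerase subunits had a median of −0.075, with 1 of 9 higher and 0 lower. Both counts were close to the 10.3% of all genes that passed in either direction, while 5.21% of all genes were higher. Pold4, a polymerase subunit, had the lowest difference (−0.585, SE 0.290), from 10.94 and 10.92 in control to 10.79 and 9.90 in irradiated arrays.

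The other nucleotide enzymes, unlike Rrm1, Rrm2, Tyms and Tk1, had no common direction. Of 14 measured, 7 were higher and 7 lower, with a median of −0.0375. At the unadjusted threshold 0 were higher and, beside 5.10% of all genes, 2 were lower. They were Dctd, dCMP deaminase, at 10.54 and 10.68 in control and 10.29 and 10.20 in irradiated arrays, and Tk2, the mitochondrial thymidine kinase, at 7.99 and 7.93 in control and 7.55 and 7.73 in irradiated arrays. Both were singled out after their values were seen. Rrm2b, the p53-inducible counterpart of Rrm2, measured 8.12 and 8.41 in control and 8.15 and 8.10 in irradiated arrays and overlapped, and was likewise chosen afterwards.

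The members, with their median of 0.31, were set beside other cell cycle lists. For 31 measured mitosis genes the median difference was 0.66 and all 31 were higher, beside 43.4% of all genes. At the unadjusted limma threshold 25 were higher, beside 5.21% of all genes. For 15 E2F factors, pocket proteins and E-type cyclins the median difference was 0.18, with 11 higher and 4 lower. Rbl1 (0.58), E2f8 (0.625) and Ccne2 (0.63) were the 3 higher at the threshold, beside the same 5.21%. In irradiated replicate 1 alone the medians were 0.865 for mitosis genes, 0.415 for the members and 0.125 for the E2F list, and in replicate 2 alone they were 0.355, 0.195 and 0.24, so the order of the members and the E2F list turned between the arrays. E2f1, the activator most often tied to S phase entry, measured 9.21 and 8.89 in control and 9.64 and 9.15 in irradiated arrays and overlapped. Irradiated replicate 1 exceeded replicate 2 for 31 of 31 mitosis genes and for 6 of 15 genes of the E2F list. The differences between these lists and the members were not tested.

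**Figure D4:**
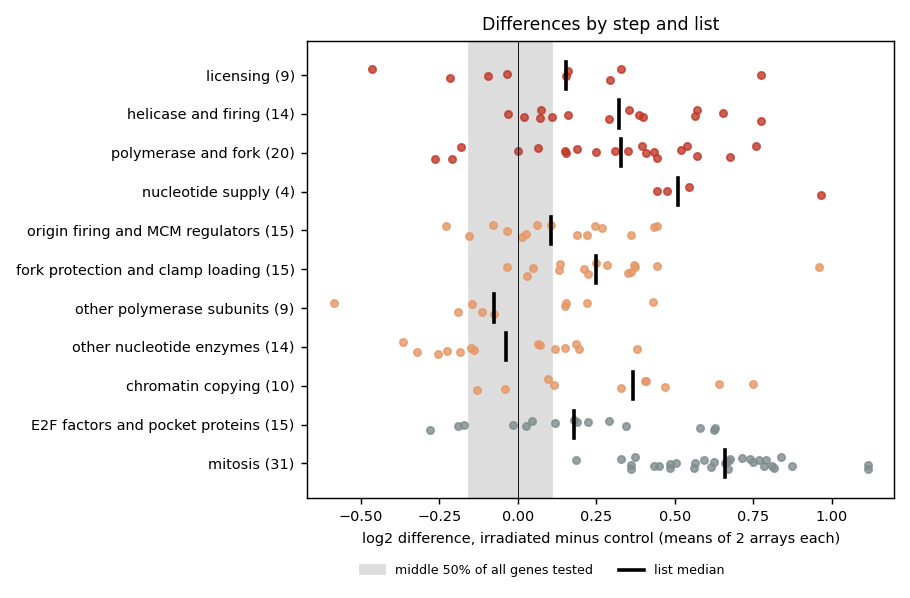
Log2 difference between irradiated and control means (horizontal axis) for each gene of the 4 steps (red), the further replication genes (orange) and the comparison lists (grey), with the number measured in brackets and the median as a black bar. The grey band holds the middle 50% of all genes, from −0.155 to 0.11; medians of the 4 steps run from 0.155 to 0.51 and that of mitosis genes is 0.66.

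Other signals moved between the same arrays, and their part in the results above was not tested. Probe sets that list several adult globin genes were 9.32-fold to 28.3-fold lower in irradiated arrays. Summed linear intensity of the 12 epithelial and trophoblast markers was 43410 to 43970 in control and 24810 to 36520 in irradiated arrays, with irradiated replicate 2 the lowest. Of these 12, 8 had lower means. At the unadjusted limma threshold 4 were lower, namely Krt7 (−1.19), Krt19 (−0.865), Epcam (−0.61) and Krt18 (−0.6), beside 5.10% of all genes. The 3 higher were Cldn4 (0.44), Eomes (0.365) and Gata3 (0.32), beside 5.21% of all genes. The sum over 12 neutrophil markers was 1306 to 1452 in control and 4315 to 4706 in irradiated arrays. However, 10 of 12 had lower means, and the mean log2 level was 6.33 and 6.47 in control and 5.93 and 5.97 in irradiated arrays. At the unadjusted limma threshold 6 were lower, beside 5.10% of all genes: Retnlg (−2.6), Il1r2 (−1.225), Cxcr2 (−1.155), Mmp8 (−1.005), S100a9 (−1) and S100a8 (−0.8). The 1 higher, beside 5.21% of all genes, was Ly6g, the brightest of the 12 in irradiated arrays. Ly6g measured 8.87 and 8.82 in control and 12.04 and 11.89 in irradiated arrays, and was the 1 neutrophil marker past the adjusted threshold. The sums were 511.4 to 522.8 and 418.6 to 495.7 for 10 of 12 T cell markers, 290.2 to 310.3 and 273.6 to 289.4 for 7 of 8 B cell markers, and 1069 to 1089 and 1083 to 1255 for 10 macrophage markers, in control and irradiated arrays in turn. For 4 of 11 erythroid markers they were 291.0 to 296.6 and 253.3 to 260.5. For 7 pan-leukocyte markers they were 3319 to 3834 and 4117 to 4540, although 5 of the 7 had lower means, with Srgn at −1.505 and Lcp1 at 0.625, and the mean log2 level was 7.31 and 7.43 in control and 7.09 and 7.03 in irradiated arrays. RMA values have no 0, so no marker was at 0.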

How the data were processed

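The authors deposited log2 probe set intensities made with RMA, per the submitters' processing notes, which give no version. Labelling used 300 ng of total RNA, per the labels' protocols. Its annotation and build were not given in the sources used here. RMA hides a change shared by most genes and compresses folds of dim probe sets. The table held 0 columns of other samples. Probe sets with 1 symbol in the platform annotation (21789) were named through Entrez identifiers in RefSeq (GRCm38.p6), 1621 with several symbols were left out of the gene fit, and 12146 were not listed. The brightest probe set by the mean of all arrays stood for each of 19938 genes.

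Arrays were compared with limma 3.58.1 in R 4.3.3 (lmFit, eBayes without trend, two-sided, 2 residual and 3.48 prior degrees of freedom), adjusted by Benjamini-Hochberg over all genes. The fit was tested on simulated data. Scan dates and slides were not used here, so batches are unknown. Steps of replication were assigned by textbook role, with the MCM ring under helicase. Array values are given for members at an unadjusted p under 0.05, the 2 highest and 2 lowest differences and the brightest member of each step, and others that complete a complex. Of the further lists, up to 8 genes with the smallest p and the highest and lowest differences are named. The members and lists were chosen with earlier results of these data known. Alternatives were filters on dim genes, quantile, median and cyclic loess scaling, the mean of probe sets, a replicate block, trend or robust eBayes, each array left out, all probe sets of a member and every row of the table.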

Additional observations from a re-analysis of the deposited data

How the results depend on the processing

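Precision is limited by having 2 arrays in a group. Filters, scaling, the mean of probe sets and trend or robust eBayes left the count of members at an unadjusted limma p under 0.05 between 19 and 22, against 19 as reported. They turned no member's direction and moved no median beyond 1 SD between replicates, although the licensing median went from 0.155 to 0.06 among genes at or above the all-gene median. The labels' replicate numbers do not state a pairing, and deviations of same-numbered arrays correlated with r = 0.0676 across all genes and 0.531 across the members. With the replicate number as a block, 18 members passed the unadjusted threshold, and 0 genes passed the adjusted one against 1 without it, as also in a fit of every row of the table and in each fit of 3 arrays (0 in all 4). Leaving out 1 array gave 6 to 28 members at the threshold. The median difference then ran from 0.195 to 0.415 for all members, from −0.04 to 0.13 for licensing, from 0.155 to 0.4925 for helicase and firing, from 0.235 to 0.465 for polymerase and fork, from 0.435 to 0.6725 for nucleotide supply, and from 0.045 to 0.235 for the further genes. Members whose direction turned without 1 array had these ranges: Orc6 −0.185 to 0.115, Cdt1 −0.04 to 0.36, Mcm6 −0.185 to 0.405, Cdc45 −0.175 to 0.325, Gins2 −0.355 to 0.295, Gins4 −0.035 to 0.175, Cdc7 −0.075 to 0.115, Pold2 −0.55 to 0.02, Rpa1 −0.075 to 0.205 and Rpa2 −0.11 to 0.41. In the fit of all 4 arrays the smallest unadjusted limma p among these members was 0.261 (Pold2). The cause of the turns was not tested.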
